A study of Talpa occidentalis with 24 samples.

Results

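The regions described here are 4382 distal enhancers of the Iberian mole, Talpa occidentalis, that were in the active enhancer state in both the ovarian and the testicular portion of the ovotestis and in no active state in the testis. They were drawn from 61445 merged distal regions and made up 7.13% of them. Members were chosen by the chromatin states themselves. Active enhancer segments of at least 400 bp with no promoter or bivalent promoter within 2 kb in any tissue were merged where they overlapped. Scaffolds 15 and 18 were left out. A merged region was kept when it held active bases in each portion of the ovotestis and none in the testis, so its activity pattern is the criterion and not a finding.

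The samples were wild-type moles at postnatal day 7, and the tissues were the ovarian portion of the ovotestis, the testicular portion of the ovotestis, and the testis of males. Chromatin immunoprecipitation with sequencing (ChIP-seq) had been done for H3K4me3, H3K4me1, H3K27ac and H3K27me3 with 2 replicates per mark, which gives 8 libraries per tissue and 24 in all. The deposited files give 1 segmentation per tissue, in bins of 200 bp and with 7 named states. There is therefore no replicate of any value below, the depth behind each call is unknown, and no test between tissues or between classes of regions was possible. Shares carry Wilson 95% intervals in brackets, and medians carry 95% order-statistic intervals. Both cover counting only and treat regions as independent, although neighbouring regions can share a promoter or a domain. In bulk tissue, fewer cells of a type and less signal per cell cannot be told apart, and the cell makeup of the portions was not measured.

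Female moles of this species carry ovotestes, in which an ovarian portion with follicles adjoins a sterile testicular portion that makes androgens. Enhancers are stretches of DNA that raise transcription of a gene, often from a distance. H3K4me1 marks enhancers in general and H3K27ac those in use, so the name poised enhancer is commonly given to a stretch with H3K4me1 and without H3K27ac. Polycomb complexes keep genes silent and deposit H3K27me3, and a promoter that carries both H3K4me3 and H3K27me3 is called bivalent. The state names here are those of the authors, and how each relates to the marks is not given in the sources used here.

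In the testis, most members held the poised enhancer state. Of the bases inside the 4382 regions, 93.0% were poised in the testis, 5.34% undefined, 1.64% in the Polycomb state and 0.0145% in the gap state. By region, 4193 (95.7% [95.04 to 96.25]) were poised over at least 50% of their bases, and 3674 (83.8%) over every base. Among all 20807 merged regions not active in the testis, members included, 89.4% were poised at this level. The share was 81.3% for regions active in the ovarian portion only and 93.0% for those in the testicular portion only. The members' share was thus somewhat higher, and a poised state in the testis was common to every class not active there. The background for single bases was lower: of the 1780 Mb more than 2 kb from promoters and not active in the testis, 22.8% were poised, 7.35% were in the Polycomb state and 62.9% were undefined.

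The state of the surroundings changed within a few kilobases. At the centre of the region, 84.5% of members were active in the ovarian portion, 93.3% were active in the testicular portion, and 95.7% were poised in the testis. These values are over the 4364 members with 10 kb of scaffold on both sides. At 2 kb to the left of the centre, the poised share was 57.3% in the ovarian portion, 57.3% in the testicular portion and 42.4% in the testis. In the 1 kb on each side of a region, the poised state took 79.8% of bases in the ovarian portion, 82.6% in the testicular portion and 60.7% in the testis. The undefined state took 15.1% of the same flanks in the ovarian portion, 12.6% in the testicular portion and 32.5% in the testis. The unbroken run of enhancer or promoter states at the member's centre had a median length of 6.2 kb [6.0 to 6.4] in the ovarian portion, 6.4 kb [6.2 to 6.6] in the testicular portion and 4.0 kb [3.8 to 4.2] in the testis. Each class active in 2 tissues had its shortest median run, and its least poised flanks, in the tissue where it was not active, and the classes had been chosen by activity. In regions active in the testicular portion and testis, the run was 4.4 kb in the ovarian portion, 8.0 kb in the testicular portion and 9.2 kb in the testis. Their flanks were poised over 59.7% of bases in the ovarian portion, 82.1% in the testicular portion and 84.0% in the testis. In regions active in the ovarian portion and testis, the run was 7.0 kb in the ovarian portion, 5.0 kb in the testicular portion and 8.6 kb in the testis, and the flanks were poised over 79.1% of bases in the ovarian portion, 67.2% in the testicular portion and 82.0% in the testis.

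**Figure D1:**
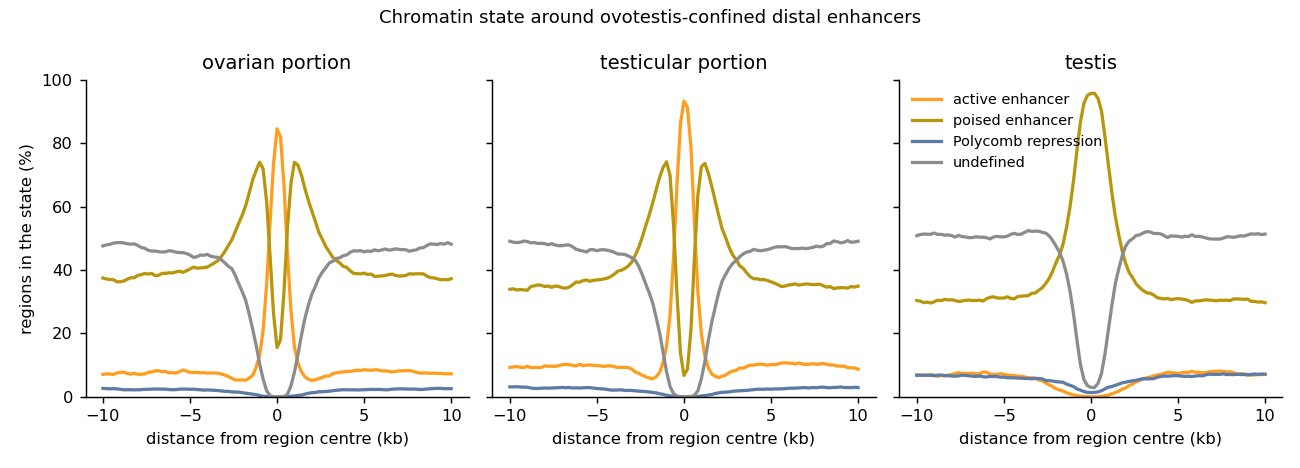
Percent of 4364 ovotestis-confined distal enhancers in each state (y axis) against distance from the region's centre in kb (x axis), in the ovarian portion, the testicular portion and the testis. The active enhancer line peaks at 84.5% in the ovarian portion and at 93.3% in the testicular portion, and is at 0 at the centre in the testis, where the poised line peaks at 95.7%.

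The region with most bases active in both portions lay on scaffold 3, from 136370601 to 136379800, and was also the longest, at 9200 bp. It held 7800 active bp in the ovarian portion and 7400 in the testicular portion, and all 9200 bp were poised in the testis. The nearest active base of the testis was 12.2 kb away. On scaffold 13, from 97434001 to 97442800, all 8800 bp were active in the ovarian portion and 5600 bp in the testicular portion. In the testis, 6600 bp of it were poised and 2200 bp undefined. The 10 kb on each side held no Polycomb base in the ovarian portion and none in the testicular portion, whereas 74% of those bases were in the Polycomb state in the testis. Within 50 kb on each side of this region, 30% of bases were active in the ovarian portion, 8.2% in the testicular portion and 6.0% in the testis.

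A region on scaffold 5, from 136455201 to 136463200, held 7800 active bp in the ovarian portion and 5600 in the testicular portion, and its 8000 bp were poised in the testis. On scaffold 3, from 41886601 to 41893800, 5800 bp were active in the ovarian portion, 6000 bp in the testicular portion, and all 7200 bp were poised in the testis. Its nearest promoter segment, 3.4 kb away, was a promoter in both portions and an active enhancer in the testis. Within 50 kb on each side of it, 10.6% of bases were active in the ovarian portion, 18.2% in the testicular portion and 13.2% in the testis. The scaffold 5 region had 11.6% of bases active around it in the ovarian portion, 3.8% in the testicular portion and 3.6% in the testis. Around the first region, on scaffold 3, active bases came to 9.0% in the ovarian portion, 10.2% in the testicular portion and 7.6% in the testis. Both portions were thus above the testis around 3 of the 4, and the ovarian portion was below it around the last.

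**Figure D2:**
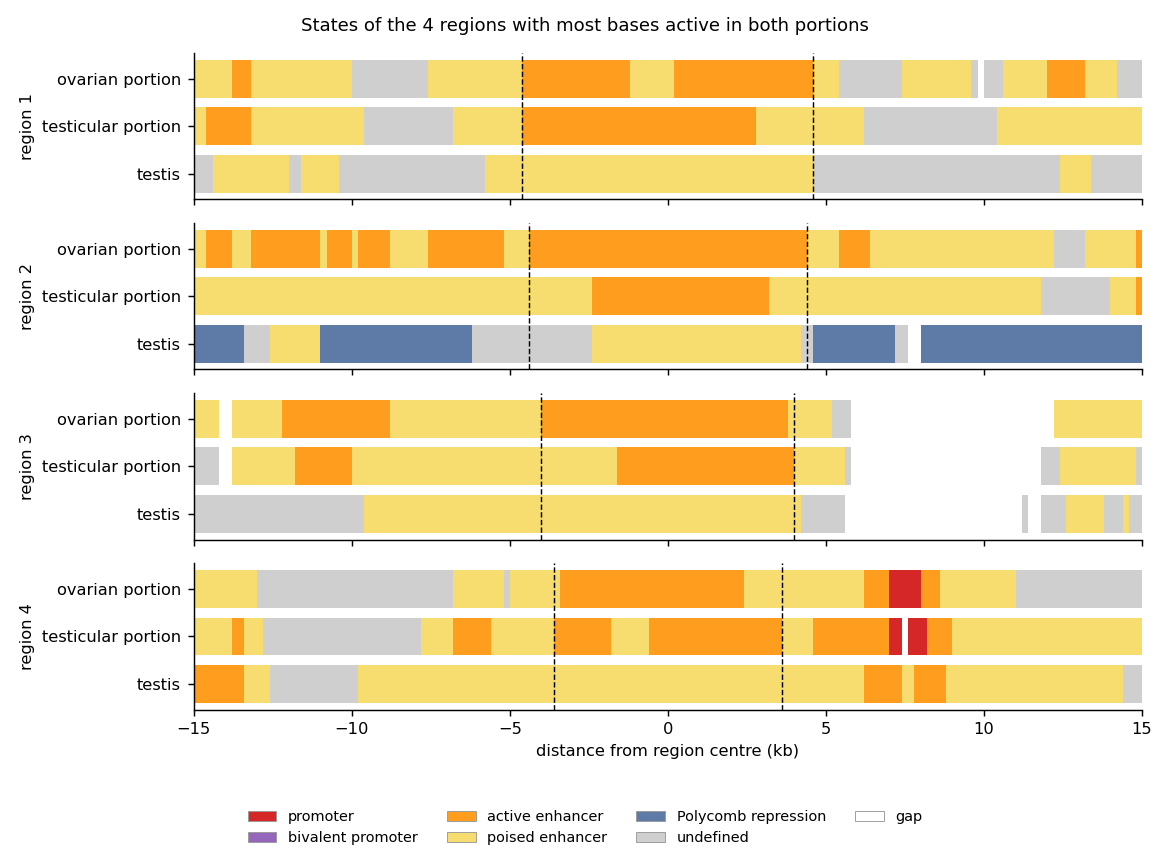
Deposited chromatin states from 15 kb before to 15 kb after the centre (x axis, kb) of the 4 regions with most bases active in both portions, in the order of the text. Each has a row for the ovarian portion, the testicular portion and the testis, dashed lines mark the region's ends, and the testis row has no active enhancer between them in any of the 4.

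The other 6 of the 10 members with most bases active in both portions were 4200 to 7000 bp long. On scaffold 3, from 115821201 to 115826400, 4400 bp were active in the ovarian portion and 5200 bp in the testicular portion. On scaffold 13, from 82143801 to 82148200, 4400 bp were active in the ovarian portion and 4200 bp in the testicular portion. On scaffold 10, from 100413201 to 100417600, the values were 4400 bp in the ovarian portion and 4000 bp in the testicular portion. These 3 were poised over all their bases in the testis. The surroundings of the scaffold 10 region were the most active of the 10, with 41.8% of bases within 50 kb active in the ovarian portion, 29.8% in the testicular portion and 14.4% in the testis.

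On scaffold 2, from 143211401 to 143218400, 4000 bp were active in the ovarian portion and 7000 bp in the testicular portion, and the nearest active base of the testis was 1.6 kb away. At the other end, the region on scaffold 1 from 89487401 to 89491600 lay 266 kb from any active base of the testis. It held 4200 active bp in the ovarian portion and 3800 in the testicular portion, its 4200 bp were poised in the testis, and its nearest promoter segment, 116 kb away, was a promoter in the ovarian portion and bivalent in the testis. A region on scaffold 13, from 68163601 to 68168600, held 4000 active bp in the ovarian portion and 5000 in the testicular portion. Its nearest promoter segment, 19.2 kb away, was a promoter in both portions and bivalent in the testis. The 10 kb on each side of it were in the Polycomb state over 0% of bases in the ovarian portion, 20% in the testicular portion and 47% in the testis.

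The state in the inactive tissue was also compared with that of the other classes active in 2 of the 3 tissues. The 9119 regions active in the testicular portion and the testis were set against their state in the ovarian portion, and the 2459 regions active in the ovarian portion and the testis against their state in the testicular portion. The poised state held 93.0% of bases in the ovotestis-confined regions, 91.8% in those missing in the ovarian portion and 95.1% in those missing in the testicular portion. The Polycomb state was rarer in each and differed more between them. At least 50% of bases were in it for 63 ovotestis-confined regions (1.44% [1.13 to 1.84]), 65 of those missing in the ovarian portion (0.713% [0.560 to 0.907]) and 13 of those missing in the testicular portion (0.529% [0.309 to 0.902]).

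The Polycomb state also covered more of the genome in the testis. Outside scaffolds 15 and 18 it took 4.99% of bases in the ovarian portion, 4.85% in the testicular portion and 7.94% in the testis, and its part in the difference between the classes was not tested. Among all 20807 regions not active in the testis, 3.17% were Polycomb there at this level, so the members stood below that background. The share was 6.54% for regions active in the ovarian portion only and 1.27% for those in the testicular portion only. The members were near the second of these, so a low share was not particular to them. The undefined state covered at least 50% of bases in 152 members (3.47% [2.97 to 4.05]), against 8.25% of all regions not active in the testis. The share was 13.5% for regions active in the ovarian portion only and 6.30% for those in the testicular portion only. In their own inactive tissue, it was 4.29% for regions missing in the ovarian portion and 2.24% for those missing in the testicular portion. A low undefined share was thus not particular to the members.

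**Figure D3:**
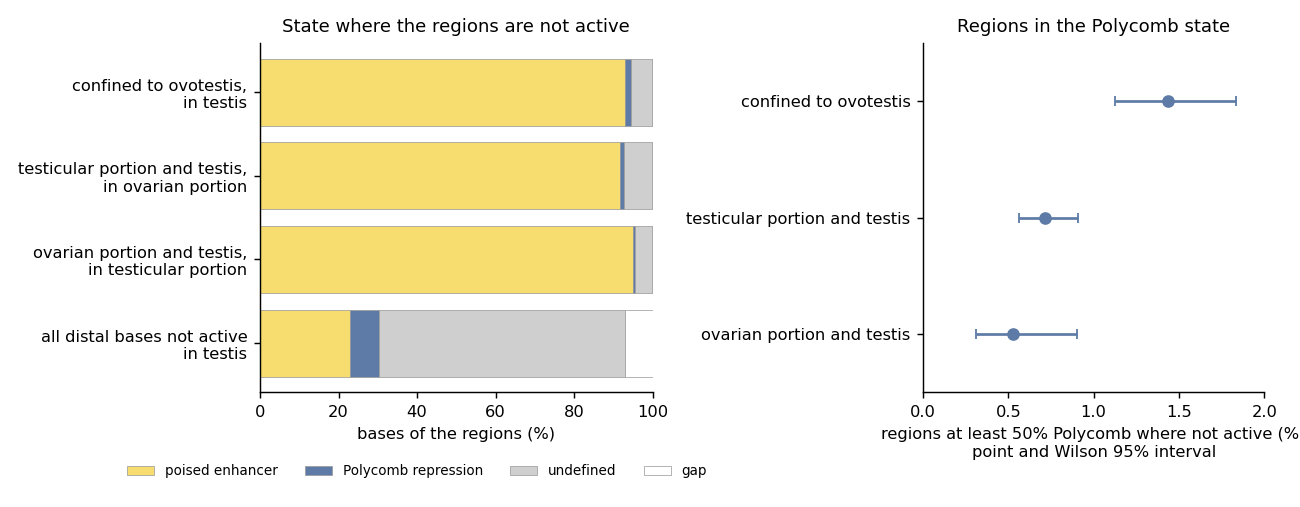
Left, percent of bases (x axis) in each state in the tissue where the regions were not active, for ovotestis-confined regions, the other classes active in 2 tissues, and all distal bases not active in the testis. Right, percent of regions at least 50% in the Polycomb state there, with Wilson 95% intervals: 1.44% of ovotestis-confined regions, 0.713% of those missing in the ovarian portion and 0.529% of those missing in the testicular portion.

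The 63 members in the Polycomb state in the testis lay in longer Polycomb stretches there, and the stretch over the member had a median length of 7.0 kb and a range of 1.2 to 37.4 kb. They were found on 15 of the 16 scaffolds of at least 1 Mb that hold members. Their own length had a median of 1200 bp, and their active bases a median of 1000 bp in the ovarian portion and 1000 bp in the testicular portion. Within 10 kb on each side, the Polycomb state took 11.2% of bases in the ovarian portion, 20.1% in the testicular portion and 52.2% in the testis. Around the 4193 members poised in the testis, the same shares were 1.92% in the ovarian portion, 2.11% in the testicular portion and 5.47% in the testis. Around these 63, the share of the testicular portion thus lay between those of the ovarian portion and the testis. The poised members gave the same ranking, so it was not particular to the 63. The 152 undefined members did not, at 2.45% in the ovarian portion, 1.85% in the testicular portion and 6.83% in the testis. Because the 63 were chosen as Polycomb in the testis, its top rank around them is not a separate finding.

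Of the 5 members with most shared active bases among those wholly in the Polycomb state in the testis, the first lay on scaffold 14, from 82700201 to 82703000. All its 2800 bp were active in the ovarian portion and 2200 bp in the testicular portion, and the nearest active base of the testis was 110 kb away. On scaffold 2, from 23196001 to 23199200, 3200 bp were active in the ovarian portion and 2000 bp in the testicular portion. On scaffold 12, from 15877201 to 15881000, 3800 bp were active in the ovarian portion and 1800 bp in the testicular portion. Its nearest promoter segment lay 2.2 kb away and was a promoter in all 3 tissues. Within 10 kb on each side of the scaffold 14 region, the Polycomb state took 0% of bases in the ovarian portion, 0% in the testicular portion and 3% in the testis. In the same order, the shares were 14%, 33% and 36% around the scaffold 2 region and 14%, 17% and 32% around the scaffold 12 region.

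The remaining 2 of these 5 differed from each other in their surroundings. On scaffold 8, from 88617401 to 88619400, 1800 bp were active in the ovarian portion and 2000 bp in the testicular portion, inside a domain that was mainly Polycomb in all tissues. The 10 kb on each side were in the Polycomb state over 69% of bases in the ovarian portion, 87% in the testicular portion and 90% in the testis. On scaffold 17, from 59063801 to 59065800, 1800 bp were active in the ovarian portion and 2000 bp in the testicular portion. Its surroundings were in the Polycomb state over 14% of bases in the ovarian portion, 0% in the testicular portion and 30% in the testis.

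The 152 members undefined in the testis were described in the same way. Within 10 kb on each side, the undefined state took 52.3% of bases in the ovarian portion, 55.8% in the testicular portion and 75.2% in the testis. Around the 4193 poised members, it took 41.9% in the ovarian portion, 42.4% in the testicular portion and 48.3% in the testis. Because the 152 were chosen as undefined in the testis, the high share there is not a separate finding. The nearest promoter segment of the 152 was a median 86.0 kb away, against 51.2 kb for the 63 Polycomb members and 49.4 kb for the 4193 poised ones. These groups overlap slightly, because a region divided evenly between states counts in both. The nearest active base of the testis was a median 34.0 kb from the undefined members, 21.8 kb from the Polycomb members and 10.8 kb from the poised ones.

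The active stretch was somewhat wider in the testicular portion than in the ovarian portion. Over the 4382 regions it averaged 1106 ± 767 bp in the ovarian portion and 1304 ± 801 bp in the testicular portion (SD over regions), with 836 ± 560 bp active in both. The ovarian portion had more active bases in 1419 regions (32.4% [31.0 to 33.8]), the testicular portion in 2348 (53.6% [52.1 to 55.1]), and 615 were equal. On each of the 16 scaffolds of at least 1 Mb with members, more of them were wider in the testicular portion. The background went the same way. Of the 23023 regions active in both portions, in the testis or not, 62.9% had more active bases in the testicular portion, and among the 18641 regions active in all 3 tissues the ovarian portion led in 23.2% and the testicular portion in 65.1%. Summed over regions, the ratio of active bases of the ovarian to the testicular portion was 0.848 in members and 0.752 in regions active in all 3. Active coverage over the genome was 4.35% in the ovarian portion, 5.71% in the testicular portion and 6.04% in the testis, and the part of this in the widths was not tested.

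Within members, the active bases of the portions were usually nested. In 2022 members (46.1%), the active bases of the ovarian portion lay within those of the testicular portion with bases to spare, and in 1189 (27.1%) the reverse held. In 349 (7.96%) they were identical, and in 822 (18.8%) each portion had active bases of its own. Regions were formed by merging overlapping segments, so some overlap between the portions follows from the rule. The nesting was not counted in other classes, so whether it is particular to the members is not known. Of the members' active bases in the ovarian portion, 75.6% were also active in the testicular portion. Of those in the testicular portion, 64.1% were also active in the ovarian portion. Across regions active in all 3 tissues, the share was 87.4% for ovarian active bases and 65.7% for testicular ones.

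**Figure D4:**
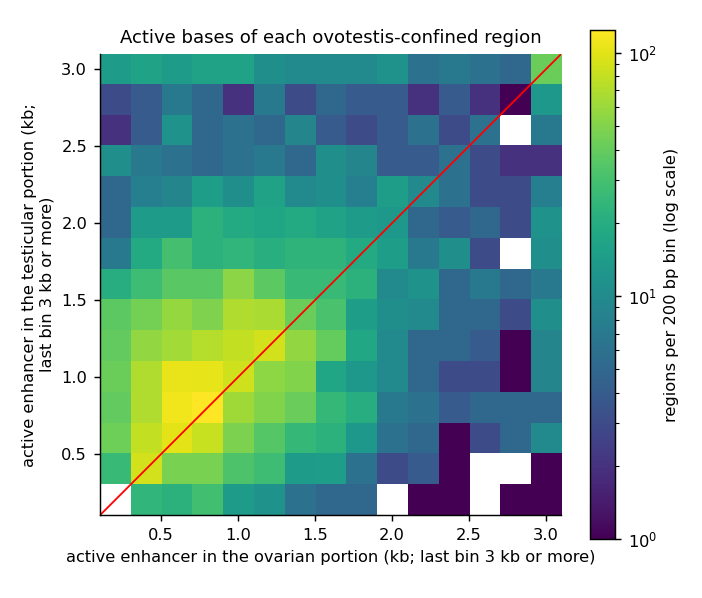
Number of ovotestis-confined regions (colour, log scale) by active enhancer length in the ovarian portion (x axis, kb) and in the testicular portion (y axis, kb), with the last bin of each axis holding 3 kb or more. The red line marks equal lengths, and by their full lengths 2348 regions belong above it, 1419 below it and 615 on it.

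Some members were much wider in 1 portion. Among those with at least 600 bp active in both, the largest ratio of the ovarian to the testicular portion was on scaffold 8, from 52763601 to 52768800, with 5200 bp in the ovarian portion and 600 bp in the testicular portion (8.67-fold). A region on scaffold 7, from 132801801 to 132806600, and one on scaffold 13, from 74588001 to 74592800, each held 4800 bp in the ovarian portion and 600 bp in the testicular portion. At the other end, a region on scaffold 10, from 57357001 to 57362800, held 600 bp in the ovarian portion and 5800 bp in the testicular portion, a ratio of 0.103. One on scaffold 9, from 110541001 to 110546600, held 600 bp in the ovarian portion and 5600 bp in the testicular portion. One on scaffold 11, from 15826801 to 15831000, held 600 bp in the ovarian portion and 4200 bp in the testicular portion. In these 6, the rest of the region in the narrower portion was mainly poised, at 3200 to 5200 bp.

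The nearest promoter segment of any of the 3 tissues was a median 50 kb away [47.4 to 53.0], over the 4376 members on scaffolds with such a segment. The median was 48.0 kb [46.4 to 49.6] for regions active in the testicular portion and testis, 31.2 kb [29.0 to 33.6] for those active in the ovarian portion and testis, and 33.4 kb [32.4 to 34.2] for those active in all 3. It was 42.6 kb [40.4 to 44.4] for regions active in the ovarian portion only, 65.4 kb [63.0 to 67.6] for those in the testicular portion only, 45.0 kb [43.6 to 46.8] for those in the testis only, and 43.2 kb over all 61403 regions with a promoter segment on their scaffold. The members were thus neither the nearest nor the farthest class. They lay farther from a promoter than regions active in all 3 by their medians on 16 of 16 scaffolds of at least 1 Mb. Of the 4376, 1173 (26.8%) had a promoter segment within 20 kb. The share was 36.9% for regions active in all 3, 27.2% for those of the testicular portion and testis, and 38.8% for those of the ovarian portion and testis. It was 31.2% for regions active in the ovarian portion only, 20.2% in the testicular portion only and 29.2% in the testis only. The members' share thus lay within the range of the other classes.

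The pattern of the nearest promoter segment was compared with that of the members. The segment was in the promoter state in both portions and not in the testis for 372 members (8.50% [7.71 to 9.36]), against 5.97% of all 61403 merged regions with a promoter segment on their scaffold. The share was 5.04% [4.61 to 5.50] for regions active in the testicular portion and testis, 4.92% [4.13 to 5.85] for those active in the ovarian portion and testis, and 6.23% [5.89 to 6.59] for those active in all 3. It was 6.68% [6.13 to 7.27] for regions active in the ovarian portion only, 6.79% [6.29 to 7.33] for those in the testicular portion only and 4.28% [3.91 to 4.69] for those in the testis only. It was higher for members than for regions active in all 3 on 14 of 16 scaffolds, and lower on scaffolds 5 and 10. Counting each promoter once, 224 of the 2990 nearest promoters of members had the pattern (7.49% [6.60 to 8.49]), against 449 of the 7751 of regions active in all 3 (5.79% [5.29 to 6.34]). On that count the share was 6.19% [5.52 to 6.93] for regions active in the ovarian portion only and 6.27% [5.60 to 7.02] for those in the testicular portion only, whose intervals overlapped that of the members. Among members with a promoter segment within 20 kb, it was 118 (10.1% [8.47 to 11.9]), against 6.39% [5.84 to 7.00] for regions active in all 3.

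Of the 3 classes active in 2 tissues, each had the highest share of nearest promoters with its own pattern. A nearest promoter in the testicular portion and testis only was found for 2.38% of members, against 5.66% of regions with that pattern. One in the ovarian portion and testis only was found for 3.88% of members, against 5.65% of regions with that pattern. Even so, most nearest promoters of members were not restricted: 2268 (51.8%) were promoters in all 3 tissues, against 56.3% for regions active in all 3. Of the restricted patterns, a promoter in the ovarian portion only was the most frequent, for 920 members (21.0% [19.8 to 22.3]). It was found for 17.3% of regions active in all 3 and 24.2% of those active in the ovarian portion only. A promoter in the testicular portion only was nearest for 7.75% of members, and one in the testis only for 4.64%.

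**Figure D5:**
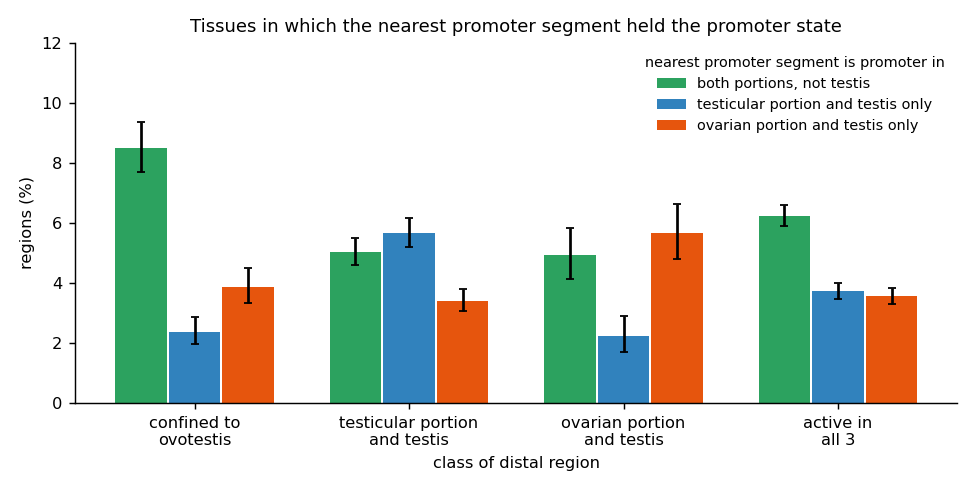
Percent of regions (y axis) whose nearest promoter segment was in the promoter state in both portions and not the testis, in the testicular portion and testis only, or in the ovarian portion and testis only, for 4 classes of distal region (x axis), with Wilson 95% intervals. The first bar is at 8.50% for ovotestis-confined regions, 5.04% for those of the testicular portion and testis, 4.92% for those of the ovarian portion and testis, and 6.23% for those active in all 3.

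The nearest promoter segment was not a promoter in the testis for 1631 members (37.3% [35.9 to 38.7]), against 30.4% of all 61403 regions. The share was 36.1% [35.0 to 37.2] for regions active in the ovarian portion only, 31.8% [30.9 to 32.8] for those in the testicular portion only and 30.3% [29.7 to 31.0] for those active in all 3. In the testis it was then mainly an active enhancer for 766 members, poised for 347, bivalent for 190, in the Polycomb state for 156, undefined for 154 and gap for 18. The Polycomb and bivalent states together came to 346 members (7.91% [7.14 to 8.74] of the 4376), against 5.09% of all 61403 regions. The other classes not active in the testis were also above that background, with 8.65% [8.03 to 9.31] of regions active in the ovarian portion only and 6.45% [5.96 to 6.97] of those in the testicular portion only. It was 3.68% [3.42 to 3.96] for regions active in all 3, 3.62% of those active in the testicular portion and testis, and 4.595% of those active in the ovarian portion and testis. Among the 63 members in the Polycomb state themselves, 12 (19.0% [11.2 to 30.4]) had such a promoter nearest, as did 23 of the 152 undefined members (15.1% [10.3 to 21.7]). Of the poised members with a promoter segment on their scaffold, it was 316 of 4187 (7.55% [6.79 to 8.39]). The 63 were chosen by the Polycomb state in the same testis segmentation, so their share is not independent of that choice.

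The distance between members was compared with that within the other classes. Of the 4382, 1646 (37.6%) had another member within 50 kb, against 64.5% of all 61445 regions with another region of their own class at that distance. The share was 64.5% in the class of the testicular portion and testis, 34.3% in that of the ovarian portion and testis, and 82.0% in that active in all 3, and it depends on the size of the class. The 21733 regions found within 50 kb of a member, counted once for each member, were therefore set against the class sizes. Members made up 11.6% of these neighbours, against 7.13% of all regions, which is 1.63 times their share. Every class exceeded its share around its own regions, from 1.31 times for those active in all 3 to 2.02 times for those active in the ovarian portion and testis, so this was not particular to the members. Around members, regions active in the ovarian portion only made up 1.23 times their share and those active in the testicular portion only 1.14 times. Regions active in all 3 tissues made up 1.10 times their share, those active in the testicular portion and testis 0.745 times, those active in the ovarian portion and testis 0.729 times, and those active in the testis only 0.555 times.

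The wider surroundings were more active than the genome in every tissue, the testis included. Within 50 kb on each side of members, promoter and active enhancer states together took 7.25% of bases in the ovarian portion, 9.12% in the testicular portion and 7.46% in the testis. These were 1.67 times the genome's coverage in the ovarian portion, 1.60 times in the testicular portion and 1.23 times in the testis. Around regions active in all 3 tissues the ratios were 2.43 in the ovarian portion, 2.48 in the testicular portion and 2.52 in the testis. Every class of distal region was above the genome in every tissue, so this was not particular to the members. In the testis the ratio was 1.38 around regions active in the ovarian portion only and 1.29 around those active in the testicular portion only. Polycomb coverage around members was 2.92% in the ovarian portion, 3.21% in the testicular portion and 6.97% in the testis, which was below the genome's in each, at 0.584 times in ovarian tissue, 0.661 times in testicular tissue of the ovotestis and 0.877 times in the testis. Every other class was also below the genome in each tissue, except regions active in the ovarian portion only, at 1.12 times in the testis. The remaining classes ran in the testis from 0.515 times (testicular portion and testis) to 0.713 times (ovarian portion and testis), below the members. Low Polycomb coverage was thus not particular to the members.

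In adjoining windows of 100 kb, 2769 windows held 1 member, 542 held 2, 116 held 3, 34 held 4 and 9 held 5. Such counts are not given here for the other classes. A window on scaffold 7, from 25000001 to 25100000, had the lowest active coverage in the testis among the first 5 of these 9. Its bases were active over 9.8% in the ovarian portion, 12.8% in the testicular portion and 1.4% in the testis. Of its 5 members, 4 were poised over all bases in the testis. The exception, from 25062001 to 25063400, was active over all 1400 bp in both portions and undefined over all of them in the testis. All 5 had as nearest promoter the segment that was a promoter in both portions and Polycomb in the testis, 31200 to 102800 bp away.

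On scaffold 9, the window from 109000001 to 109100000 was active over 19.8% of bases in the ovarian portion, 27% in the testicular portion and 7.2% in the testis. Its longest member, from 109002401 to 109006600, held 3600 active bp in the ovarian portion and 4000 in the testicular portion, with the nearest active base of the testis 1000 bp away. On scaffold 3, the window from 12600001 to 12700000 was active over 31% of bases in the ovarian portion, 11.2% in the testicular portion and 21.2% in the testis. Its 5 members shared a nearest promoter at least 117000 bp away that was a promoter in the ovarian portion only and Polycomb in the testis. The window from 50400001 to 50500000 on the same scaffold was active over 15% in the ovarian portion, 21.6% in the testicular portion and 9.6% in the testis. That on scaffold 6, from 133500001 to 133600000, was active over 18.2% in the ovarian portion, 14.6% in the testicular portion and 18.8% in the testis. In this window and in that near position 12600001 on scaffold 3, the testis had more active bases than at least 1 portion.

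The members' share of distal regions varied little between scaffolds. Over the 16 scaffolds of at least 1 Mb with members, it ran from 5.73% on scaffold 5 to 7.61% on scaffold 4. Their density ran from 1.76 per Mb on scaffold 5 to 2.71 per Mb on scaffold 16. The poised share of member bases in the testis ran from 89.3% on scaffold 6 to 96.6% on scaffold 16. A further 31 members lay on 30 scaffolds under 1 Mb. All members together covered 6.90 Mb of 1991 Mb. They held 6.60% of all active enhancer bases in ovarian tissue and 5.61% in testicular tissue of the ovotestis.

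Some members lay close to the limits of the rule. Their length had a median of 1400 bp, with 800 bp at the 10th and 2600 bp at the 90th percentile. In 139 of them neither portion held more than 400 active bp. Only 200 bp were active in the ovarian portion in 293 members and in the testicular portion in 121. An active base of the testis lay at most 200 bp from the region's end in 27 members (0.616%), at most 1000 bp in 207 (4.72%) and more than 50 kb away in 688 (15.7%), with a median of 11.2 kb. On the other side of the limit, 188 of the 18641 regions active in all 3 had 200 bp, a single bin, active in the testis.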

How the data were processed

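The deposited files used here are the authors' chromatin state tables, 1 per tissue, on an assembly named talOcc4; their unit is a state name per segment of 200 bp bins, not a count or signal. Per the labels' protocols, gonads were fixed in formaldehyde and chromatin precipitated with a commercial histone ChIP-seq kit. STAR 2.6.1d and mm9 appear in the submitters' processing notes. For the segmentation tool, the depth and any filters of the mole tables, nothing is given in the sources used here. The authors pooled both replicates of each mark.

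Regions were formed in Python 3.11.15 with numpy 2.4.6 and pandas 2.3.3 by the rule stated above, and the code was tested on simulated segmentations. Active means the promoter or active enhancer state; members hold no promoter base. Distances are gaps between ends. The members and all lists were chosen with earlier results of these data known. Regions were named as the 10 with most bases active in both portions, the 5 such among those wholly Polycomb in the testis, the 5 windows of 100 kb with most members, and the 3 largest and 3 smallest ratios, with ties to the lower scaffold and position. No genome or gene annotation on talOcc4 was used, so genes and sequence are not analysed here. With 1 segmentation per tissue, no test was run.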

Additional observations from a re-analysis of the deposited data

How the results depend on the processing

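Summary values were recomputed under 12 other settings and 3 added after seeing the data (adjoining segments merged, at least 2 kb in place of more than 2 kb, each promoter counted once). The number of regions ran from 3449 with segments of at least 1000 bp to 4502 at more than 1 kb from promoters, within 1.5 times the 4382 reported. Of 95 values, 82 were counted as unchanged. Counts had to meet that limit, and shares and medians the 95% interval of the reported value. The excess over regions active in all 3, given below, had only to keep its sign. The members' share of distal regions ran from 6.46% to 7.75%, beyond its interval in 4 of 10 settings. Their median distance to a promoter segment ran from 47.8 to 56.2 kb, beyond its interval in 1 of 10. The share with more active bp in the testicular portion was 57.6% with segments of at least 1000 bp and 51.8% with at least 400 bp active in each portion. The share with another member within 50 kb was 34.9% with segments of at least 1000 bp; it was 22.0% at 20 kb and 54.2% at 100 kb. Members with any base in the Polycomb state in the testis came to 3.19%, and those with all bases to 1.07%. The share whose nearest promoter was in both portions and not in the testis was 7.49% with each promoter counted once. Its excess over regions active in all 3 ran from 2.13 to 2.63 percentage points under the 10 alternatives that form the regions anew. The planned composition of the sequence was not run, because no genome on talOcc4 was used. No paired analysis was possible because each tissue has 1 segmentation for all its replicates, and leaving out a replicate was not possible for the same reason. Unknown depth limits every value.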

Other observations

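On the left-out scaffold 15, the same rule gave 21 regions of 421 (4.99%), of which 19 were poised, 1 was in the Polycomb state and 1 was undefined in the testis over at least 50% of bases. On scaffold 18 it gave 0 of 26 regions. No member was found among the 10 distal regions of scaffold 19.

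Among the regions active in 1 tissue, the Polycomb state was more frequent in the testis for those of the ovarian portion: 482 of 7373 (6.54%) held it there over at least 50% of bases, against 115 of 9052 (1.27%) of those active in the testicular portion only. The ovotestis-confined regions, at 1.44%, were near the second of these.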
